A study of Mus musculus with 6 samples.

Results

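The genes described here encode the splicing factors and heterogeneous nuclear ribonucleoproteins (hnRNPs) of the adult mouse cerebellum. They were chosen by symbol from the protein-coding rows of the deposited count table: SR proteins (Srsf), the SR-related matrix proteins (Srrm) with Nktr and Son, all genes named Hnrnp, and the subunits of the SF3A and SF3B complexes, each with a mean of at least 1 CPM, a count scaled to the size of its library. Nktr and Son were added by name, and the choice was made with earlier results of these data known. The rule found 46 of 56748 genes, namely 11 Srsf genes, 6 Srrm genes with Nktr and Son, 20 Hnrnp genes and 9 Sf3a or Sf3b genes. All 46 matching members passed the filter on low counts and were tested. RNA came from the whole cerebellum of 6 C57BL/6J mice aged 90 to 120 days, whose mothers drank water with 0 ppm (Control, 3 mice) or 0.2 ppm methylmercury (MeHg, 3 mice). Dosing ran through pregnancy and ended at birth, so the offspring were exposed before birth and sampled as adults. MeHg is an organic form of mercury that crosses the placenta and is toxic to developing neurons. No label names the dam or litter, so p-values measure only the spread between these 6 samples.

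Splicing removes introns from pre-mRNA on the spliceosome, whose U2 particle uses the SF3A and SF3B complexes to hold the branch site. SR proteins bind exons and favour their inclusion, whereas many hnRNPs bind introns or exons and oppose it. Both kinds are abundant nuclear proteins, and many adjust their own RNA through alternative exons that lead to decay. In neurons the SR-related protein Srrm4 switches on very short exons, and Son and Srrm2 build the nuclear speckles where splicing factors gather.

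The start regions of the 3 members that fell in MeHg, Son, Sf3b1 and Srsf5, are shown because these are the genes on which the comparison turns. Sf3b1 lies on chromosome 1 at 55024328 to 55066640 on the minus strand, Srsf5 on chromosome 12 at 80992278 to 80997281 on the plus strand, and Son on chromosome 16 at 91444394 to 91476109 on the plus strand (mm39). For Sf3b1 and Srsf5 the 250 bases before the start in RefSeq's mouse table (GRCm38.p6) are given, and each matched the GRCm39 genome at 1 place, chr1:55066638-55066887 and chr12:80992023-80992272. For Son the 83 bases between the starts of the main GENCODE transcripts of Son and of the divergent gene Gart are given, at chr16:91443866-91443948 of GRCm39. That Son transcript starts at 91443949, upstream of the start in the deposited table, and the annotated spans of the 2 genes overlap by 588 bases. Each is written 5′ to 3′ in the direction of the named gene. Capitals mark the CCAAT box (CCAAT), the GC box (GGGCGG), the core of an Ets site (CGGAAG) and the TATA box (TATAAA), each searched on both strands. A GGGCGG match can share letters with a CGGAAG match.
Sf3b1: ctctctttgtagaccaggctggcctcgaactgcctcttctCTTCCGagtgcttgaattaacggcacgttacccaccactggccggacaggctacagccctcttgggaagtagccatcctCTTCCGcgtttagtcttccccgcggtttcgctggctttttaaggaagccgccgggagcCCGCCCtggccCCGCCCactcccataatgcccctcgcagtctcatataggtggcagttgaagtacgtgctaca
Srsf5: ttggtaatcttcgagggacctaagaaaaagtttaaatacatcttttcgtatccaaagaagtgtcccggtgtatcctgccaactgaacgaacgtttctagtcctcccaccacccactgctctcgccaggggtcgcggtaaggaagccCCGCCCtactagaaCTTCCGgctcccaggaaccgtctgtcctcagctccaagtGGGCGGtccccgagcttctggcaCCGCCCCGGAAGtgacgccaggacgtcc
Son: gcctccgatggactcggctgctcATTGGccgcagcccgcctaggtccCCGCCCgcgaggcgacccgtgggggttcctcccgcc
The Sf3b1 window holds 2 GGGCGG matches and 2 matches of CGGAAG, the Srsf5 window 3 and 2, and the shorter Son window 1 CCAAT match and 1 match of GGGCGG. No TATAAA is in these 3 windows. Across the 56 RefSeq starts of the 42 members in that table, GGGCGG was in 69.6% of the 250-base windows, against 32.7% of all 32851 starts, and CGGAAG in 42.9% against 13.6%. CCAAT was in 48.2% against 33.8%, and TATAAA in 7.14% against 12.4%. The members' windows were also richer in G and C, with a median of 63.8% against 52.4%, and had a median of 23 CpG dinucleotides against 6. These matches describe letters in a window and were not tested as binding sites.

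Library totals ran from 14116088 to 20303833 counts, and the members had between 163 and 17760 counts in any library. Control 1, Control 2, MeHg 1 and MeHg 3 are labelled female, and Control 3 and MeHg 2 male. Control 2, however, had 0.249 CPM of Xist and 216 CPM of Y-linked RNA, the pattern of the libraries labelled male. Xist was at 772.3 CPM in Control 1, 747.5 CPM in MeHg 1 and 694.1 CPM in MeHg 3, all with 0 CPM of Y-linked RNA. By these RNAs, Control holds mostly male libraries and MeHg mostly female ones, so sex and exposure are partly mixed in the comparison. Cerebellar markers were present in every library, including those of granule cells, the most numerous neurons (all 15 of 15 listed genes tested, none at 0), and of Purkinje cells (10 of 10). MeHg 2 stood apart with the highest summed level of midbrain and brainstem markers, 335 CPM against 37.8 to 106 CPM in the other libraries. The calls are therefore also given without Control 2 and without MeHg 2.

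The comparison of MeHg with Control asks whether RNA of the adult cerebellum differs after exposure before birth. Of the 46 members, 3 fell and 0 rose at an adjusted p under 0.05 (edgeR quasi-likelihood test, Benjamini-Hochberg adjustment over all 16859 genes tested). That is set against 1.79% of all genes tested that fell and 0.575% that rose. DESeq2 called 9 members lower and 0 higher, against 5.31% and 3.66% of all genes, and limma-voom 4 lower and 0 higher, against 1.65% and 0.475%. Without adjustment, 20 members were lower and 2, Srsf12 and Hnrnpd, higher at a p under 0.05, against 12.7% and 11.8% of all genes. The members' fold changes were small and leaned to one side: 36 of 46 were negative, against 48.9% of all genes, and their median log2 fold change was -0.15, against 0.01 for all genes. All 3 MeHg libraries lay below all 3 controls for 20 members and above them for 2, Hnrnpd and Sf3b2, against 15.5% and 13.9% of all genes. The other 24 members overlapped between groups. In tissue RNA, fewer cells of a type and less RNA per cell cannot be told apart.

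**Figure D1:**
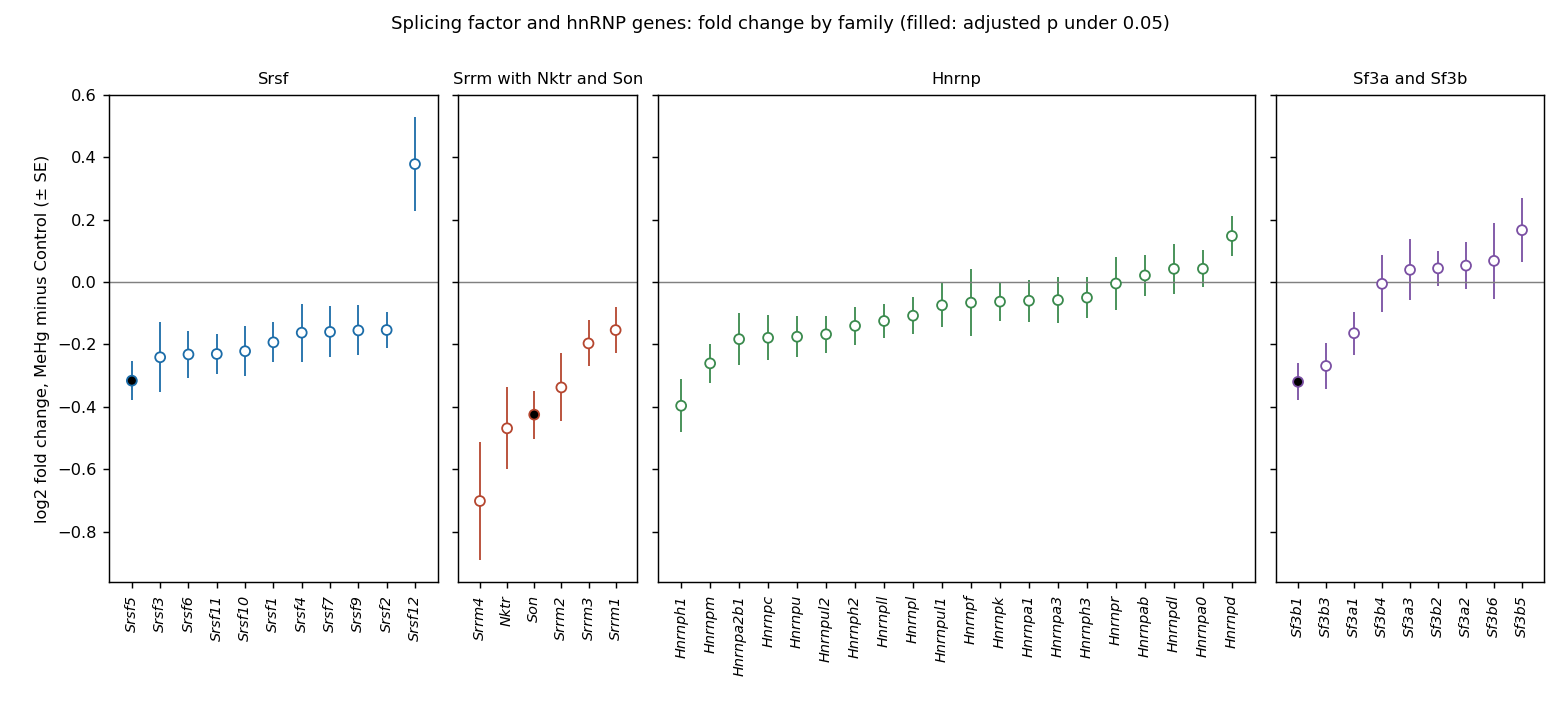
Log2 fold change of each of the 46 members (MeHg minus Control, y axis) with its SE, grouped by family along the x axis, with black points for the members at an adjusted p under 0.05. Every Srrm gene with Nktr and Son lies below 0, as do 10 of 11 Srsf genes, while the Sf3a and Sf3b genes lie on both sides.

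The 4 families differed in how far they leaned, although the difference between families was not tested. The median log2 fold change was -0.38 for Srrm with Nktr and Son, -0.19 for Srsf, -0.07 for Hnrnp and 0.04 for Sf3a and Sf3b. Nktr (-0.47) and Son (-0.43) had been added to the Srrm genes by name, with earlier results known. The lean of that family is therefore not independent of the choice. Srrm1, Srrm2, Srrm3 and Srrm4 themselves had -0.15, -0.34, -0.20 and -0.70. The Sf3a and Sf3b median turned negative with an offset for gene length (-0.0144), GC content (-0.0377) or both (-0.0695) and without MeHg 3 (-0.0054). With the length offset the Srrm median was -0.23, and for Hnrnp the medians ran from -0.124 without MeHg 1 to -0.0325 with upper-quartile scaling. Summed over its genes, the Srrm family with Nktr and Son was at 2153 ± 103 CPM (SD, n = 3) in Control and 1663 ± 182 CPM in MeHg, a difference of -22.7%. The Srsf sum was 1853 ± 30.6 CPM and 1587 ± 74.9 CPM, a difference of -14.4%. The Hnrnp sum, the largest of the 4, was 4951 ± 47.6 CPM and 4544 ± 114 CPM, a difference of -8.21%. For Sf3a and Sf3b the sum was 1073 ± 28.0 CPM and 977 ± 12.3 CPM, a difference of -8.97%, although 5 of its 9 genes had positive fold changes. The 3 largest genes hold 72.7% of that sum, 81.9% of the Srrm sum with Nktr and Son, 52.9% of the Srsf sum and 34.0% of the Hnrnp sum. Of the 3 in Sf3a and Sf3b, Sf3b1 went from 409 to 328 CPM and Sf3b3 from 122 to 101 CPM. Sf3b2 went from 262 to 270 CPM. In each of the 4 sums the MeHg libraries lay below the controls without overlap. All members together made up 0.940% of the RNA counted, on the same scale.

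**Figure D2:**
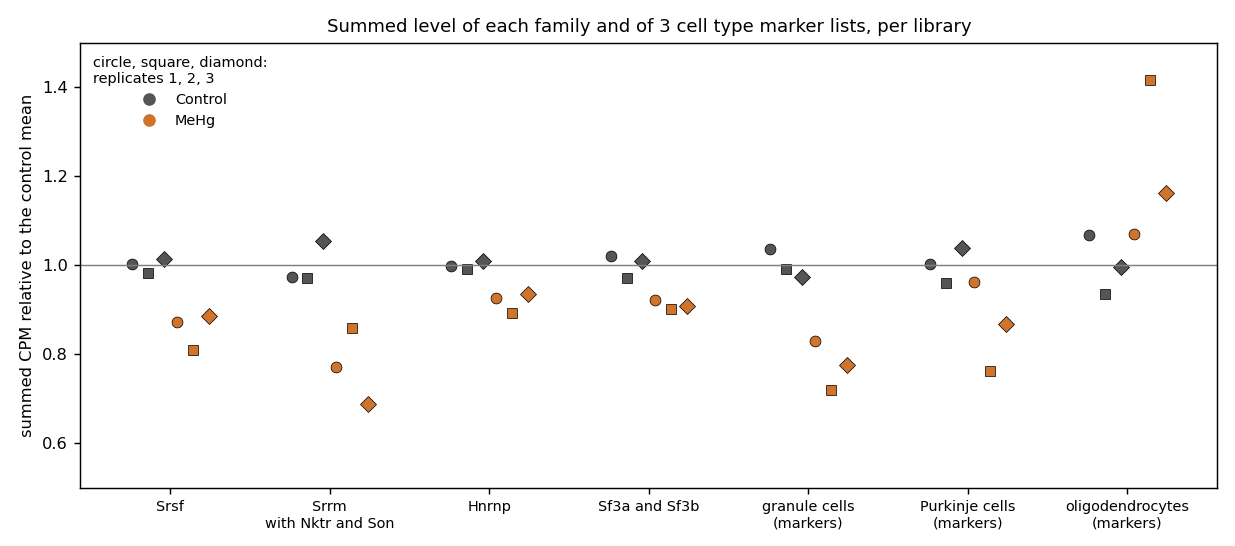
Summed CPM of each family and of 3 cell type marker lists in each library, divided by the mean of the 3 controls (y axis); circles, squares and diamonds are replicates 1, 2 and 3. The MeHg points of the 4 families lie below the control points, as do those of the granule cell markers, while the oligodendrocyte points lie higher.

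Among the SR-related genes, Son fell and had the smallest p of the 46 members. Son is a large RNA-binding protein of nuclear speckles that is needed to splice weak introns. Its level was 705, 688 and 747 CPM in Control 1, 2 and 3 and 525, 573 and 496 CPM in MeHg 1, 2 and 3. Every MeHg library was below every control, and MeHg 2 was the highest of its group. The log2 fold change was -0.43 ± 0.08 (SE), with an edgeR adjusted p of 0.0431. Donson overlaps 12855 bases of Son on the other strand and was at 26.0 CPM in Control and 22.8 CPM in MeHg, far below Son. Strand handling is not given in the sources used here, so reads of overlapping genes on opposite strands may not be separated.

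Srrm2, the other speckle scaffold, had the highest level per length of its family, with a mean of 57.3 FPKM (fragment counts scaled to gene length and library total) over the 6 libraries. It was at 837, 886 and 909 CPM in the controls and at 680, 809 and 594 CPM in MeHg. The groups did not overlap, but the MeHg libraries were spread widely and MeHg 2 lay close to Control 1. The log2 fold change of -0.34 ± 0.11 did not pass (edgeR adjusted p = 0.111). Nktr, a cyclophilin with a long SR-like tail, had the same order of MeHg libraries. Its level was 154, 160 and 191 CPM in the controls and 114, 148 and 103 CPM in MeHg, with MeHg 2 just under Control 1. Its log2 fold change was -0.47 ± 0.13 (edgeR adjusted p = 0.0838).

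Srrm4, the neuronal activator of very short exons, had the most negative fold change of the 46 members but overlapped between groups. It was at 140, 88.0 and 137 CPM in the controls and 90.6, 73.4 and 60.1 CPM in MeHg. Control 2 lay below MeHg 1, so that the low control decides the overlap. The log2 fold change was -0.70 ± 0.19 (edgeR adjusted p = 0.0768), and -0.89 ± 0.15 without Control 2 (adjusted p = 0.0451, within a range of 1.73e-10 to 0.276 over all settings tried). Its antisense RNA Srrm4os shares 26213 bases with it and was at 7.50 CPM in Control and 3.62 CPM in MeHg. The paralogue Srrm3, which acts on similar exons, had a log2 fold change of -0.20, and Srrm1, a splicing coactivator, had -0.15, both with overlapping groups.

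Of the genes named Srsf, 1 fell and 10 of 11 had negative fold changes, against 1.79% and 48.9% of all genes. Srsf5, which binds exonic enhancers, fell and had the highest level per length of the 11, at a mean of 85.3 FPKM. It was at 402, 393 and 414 CPM in the controls and 311, 327 and 332 CPM in MeHg, so the groups were separated by a wide gap and each was tight. The log2 fold change was -0.32 ± 0.06 (edgeR adjusted p = 0.0433). The genes overlapping Srsf5 on the other strand, Gm20337 and Slc10a1, were below 1 CPM in both groups. Srsf11, an SR-related protein that helps Srrm4 at very short exons, was at 202, 231 and 212 CPM in the controls. In MeHg it was at 184, 186 and 178 CPM, lower in all 3 libraries, and its log2 fold change of -0.23 ± 0.07 had an edgeR adjusted p of 0.0863. Srsf1, Srsf2, Srsf4, Srsf6 and Srsf10 also had all 3 MeHg libraries below the controls, with log2 fold changes of -0.19, -0.15, -0.16, -0.23 and -0.22. Srsf3, Srsf7 and Srsf9 had -0.24, -0.16 and -0.16 with overlapping groups. Srsf12 stood apart from its family with 0.38 ± 0.15 (edgeR adjusted p = 0.172). It is also the least abundant Srsf gene per length, at 4.37 FPKM.

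**Figure D3:**
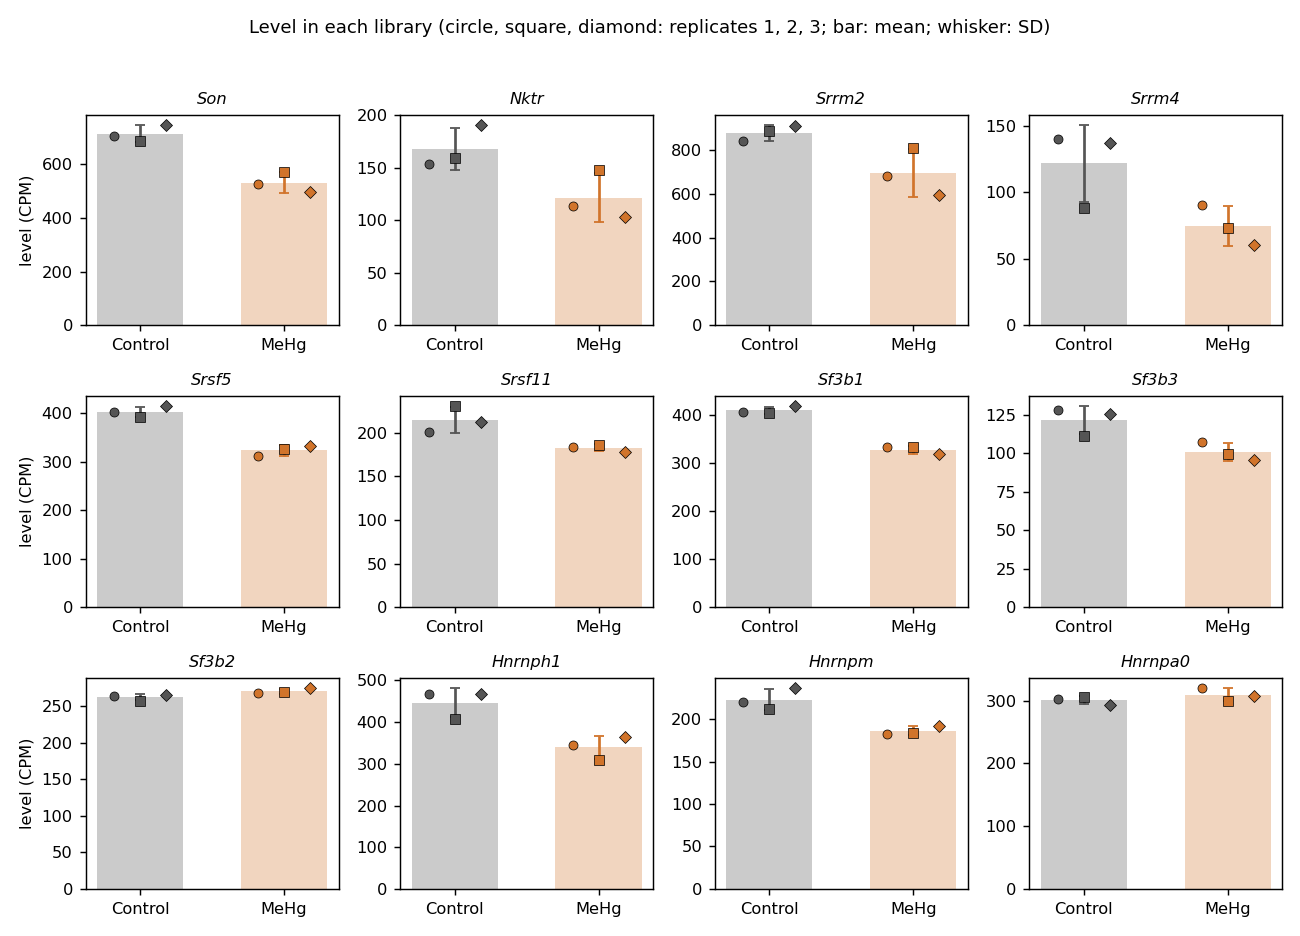
CPM in each library for 12 members (y axes start at 0), with bars for the group mean, whiskers for the SD and circles, squares and diamonds for replicates 1, 2 and 3. Son, Sf3b1 and Srsf5 show separated groups, Srrm4 overlaps through Control 2, and Sf3b2 and Hnrnpa0 are nearly level.

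The SF3B complex was uneven. Sf3b1, the subunit that clasps the branch site, fell. It was at 406, 403 and 417 CPM in the controls and 332, 333 and 318 CPM in MeHg. Both groups were tight and far apart, and the log2 fold change was -0.32 ± 0.06 (edgeR adjusted p = 0.0433). Sf3b3, a propeller-shaped scaffold subunit, was at 128, 112 and 125 CPM in the controls and 108, 99.6 and 95.7 CPM in MeHg. Control 2 was low again, only just above MeHg 1, and the log2 fold change of -0.27 ± 0.07 did not pass (edgeR adjusted p = 0.0794). Sf3b2, which contacts RNA near the branch site, had the highest level per length of the 9, at 36.6 FPKM. Its levels were 264, 257 and 265 CPM in the controls and 268, 269 and 275 CPM in MeHg. Here the MeHg libraries all lay slightly above the controls, with a log2 fold change of 0.04 ± 0.06 (edgeR adjusted p = 0.670). The other SF3B genes, Sf3b4, Sf3b5 and Sf3b6, had -0.01, 0.17 and 0.07. The SF3A subunits Sf3a1, Sf3a2 and Sf3a3 had -0.16, 0.05 and 0.04, and all of these 6 genes overlapped between groups.

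The Hnrnp family had the most members, with 16 of 20 genes negative, 8 with the MeHg libraries all lower and 1 all higher, against 48.9%, 15.5% and 13.9% of all genes. None passed at an adjusted p under 0.05, while 6 were lower and 1 higher at an unadjusted p under 0.05 in the same edgeR test, against 12.7% and 11.8% of all genes. DESeq2 called Hnrnph1 and Hnrnpm lower, and limma-voom called Hnrnph1. Hnrnph1, which binds runs of G, came closest. It was at 467, 407 and 466 CPM in the controls and 344, 309 and 365 CPM in MeHg, with the library numbered 2 the lowest of each group and no overlap. Its log2 fold change was -0.40 ± 0.09 (edgeR adjusted p = 0.0507). Hnrnpm, which binds GU-rich RNA, was at 221, 212 and 236 CPM in the controls and 182, 184 and 192 CPM in MeHg. Its MeHg libraries were tight and below every control, with a log2 fold change of -0.26 ± 0.06 (edgeR adjusted p = 0.0606).

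Hnrnpa0, a binder of AU-rich RNA, had the highest level per length of all Hnrnp genes, with a mean of 107 FPKM. Its levels of 302, 306 and 294 CPM in the controls and 320, 300 and 308 CPM in MeHg overlapped, with a log2 fold change of 0.04 ± 0.06 (edgeR adjusted p = 0.704). A further 6 genes had all MeHg libraries lower. Hnrnpu, a nuclear scaffold protein, Hnrnpc, which binds U-tracts, and Hnrnpul2 had -0.18, -0.18 and -0.17, and Hnrnph2, Hnrnpll and Hnrnpl had -0.14, -0.12 and -0.11. Hnrnpa2b1, known for sorting RNA into neurites, had -0.18 with overlapping groups. Hnrnpd, which regulates decay of AU-rich mRNAs, was the one Hnrnp gene with all MeHg libraries higher, at a log2 fold change of 0.15. The remaining 9 genes overlapped and lay between -0.07 for Hnrnpul1 and 0.04 for Hnrnpdl. They include the splicing silencer Hnrnpa1 (-0.06), the C-binding protein Hnrnpk (-0.06), and Hnrnpa3, Hnrnpab, Hnrnpf, Hnrnph3 and Hnrnpr.

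**Figure D4:**
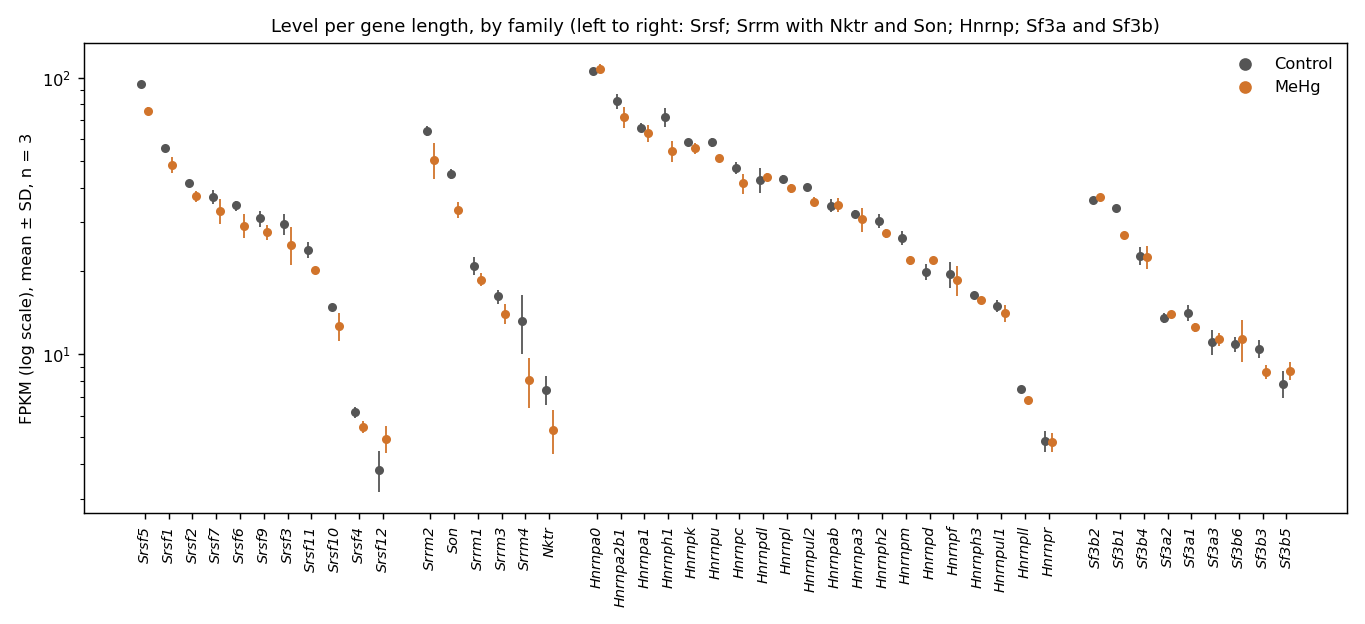
Mean FPKM (log scale, y axis) with SD over 3 libraries for each member in Control and MeHg, ordered within each family by level. Over all 6 libraries the means run from 4.37 FPKM for Srsf12 to 107 FPKM for Hnrnpa0, and the 2 groups lie close together for most Hnrnp and Sf3a or Sf3b genes.

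The libraries of the MeHg group did not rank alike in every family. Relative to the control mean, the median log2 difference of the Srsf genes was -0.13 in MeHg 1, -0.29 in MeHg 2 and -0.13 in MeHg 3. For Hnrnp it was -0.09, -0.15 and -0.08, and for Sf3a and Sf3b 0.01, -0.11 and 0.06. MeHg 2 was thus the lowest of its group in these 3 families, and for 22 of all 46 members. For the Srrm genes with Nktr and Son the order turned, with -0.38 in MeHg 1, -0.23 in MeHg 2 and -0.54 in MeHg 3. MeHg 2 was the highest of its group for 4 of these 6 genes and MeHg 3 the lowest for 5. Among the controls, Control 2 was the lowest for 25 of 46 members.

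The call of the 3 members depended on which library was left out. Without Control 2 the log2 fold changes were -0.45 for Son, -0.33 for Sf3b1 and -0.34 for Srsf5, and none passed (edgeR adjusted p = 0.0563, 0.0612 and 0.0620). Srrm4 was then the 1 member that fell, against 1.01% of all genes that fell and 0.281% that rose. Without MeHg 2, all 3 passed (adjusted p = 0.0100, 0.0212 and 0.0253), and Hnrnph1, Nktr and Srrm2 fell as well, which makes 6 members, against 4.16% of all genes that fell and 2.16% that rose. The members' median log2 fold change was -0.17 without Control 2 and -0.11 without MeHg 2. Leaving out Control 1, Control 3, MeHg 1 or MeHg 3 ended all 3 calls, with edgeR adjusted p between 0.0676 and 0.207. In those fits 0, 0, 2 and 0 of all genes passed, so the loss of calls was not particular to these members. Over all settings tried the adjusted p ran from 1.4e-05 to 0.207 for Son, 0.000227 to 0.207 for Sf3b1 and 0.000511 to 0.207 for Srsf5. The fold changes of these 3 genes were negative in every setting.

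Gene length moved with the fold changes. Across the 46 members, Spearman's rho between the log2 fold change and the gene length of the deposited table was -0.55, and across all 16859 genes it was -0.21. These are descriptions across genes measured in the same 6 libraries. The 8 members of at least 10000 bases had a median log2 fold change of -0.29, and all 1483 such genes had -0.14. The 38 shorter members had a median of -0.15, against 0.02 for the 15376 shorter genes. When the edgeR test carried an offset for gene length in each library, the members' median was -0.12, 37 of 46 were negative, and rho was -0.15. With that offset, Sf3b1, at 11370 bases, had a log2 fold change of -0.19 (adjusted p = 0.110) and Son, at 14907 bases, -0.26 (adjusted p = 0.0901). Srsf5, at 3988 bases, had -0.33 (adjusted p = 0.0749), and 0.0% of all genes passed. At an unadjusted p under 0.05 there were 18 members, against 21.3% of all genes, in either direction. The other members of at least 10000 bases did not all move alike. Nktr, at 21283 bases, went from -0.47 to -0.26, Srrm2 from -0.34 to -0.20 and Sf3b3 from -0.27 to -0.15. Hnrnpu went from -0.18 to -0.04, and Hnrnpll from -0.125 to 0.01, a change of sign. Hnrnpr, at 22199 bases, moved away from 0, from -0.0049 to 0.21 (edgeR adjusted p = 0.181). The shorter Srsf11, at 8446 bases, went from -0.23 to -0.15. With offsets for both length and GC content Nktr had -0.19 and Sf3b1 -0.14. The medians with the length offset were -0.19 for Srsf and -0.06 for Hnrnp.

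**Figure D5:**
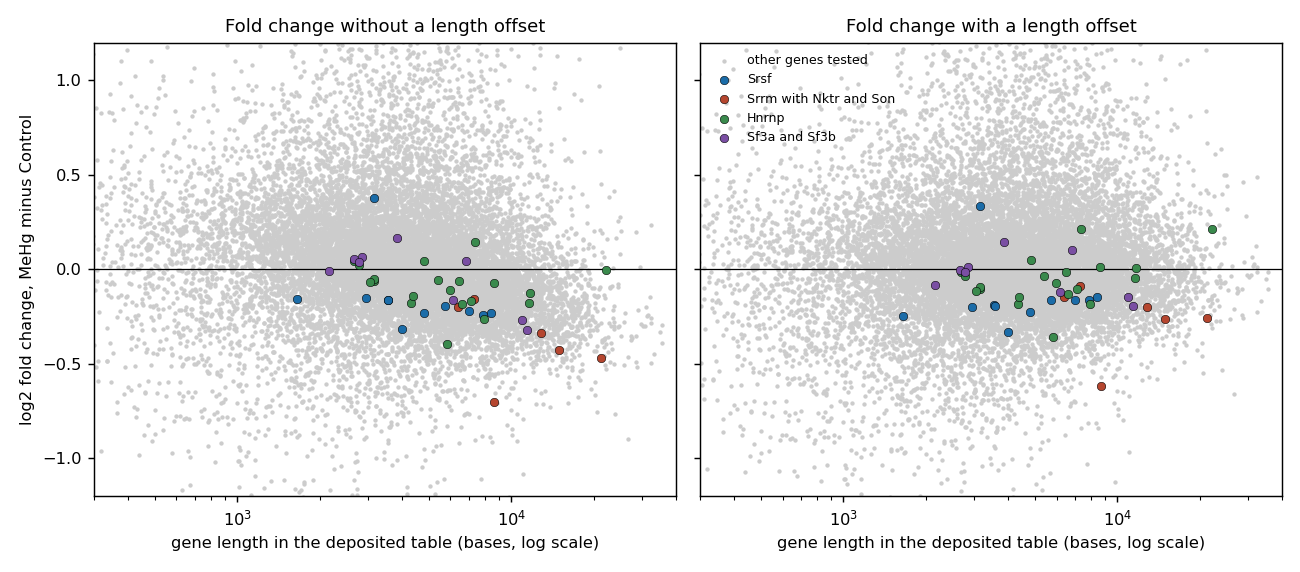
Log2 fold change (MeHg minus Control, y axes) against gene length (bases, log scale) without and with an offset for length, with members coloured by family over the other genes tested; some other genes lie beyond the axes. Without the offset the longest Srrm genes, Nktr and Son lie at the lower right, and with it the members' rho goes from -0.55 to -0.15.

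Annotated transcripts give another property that the choice of members did not use. Of the 46 members, 38 have at least 1 transcript annotated as a target of nonsense-mediated decay in GENCODE vM39. For 35 there is at least 1 retained-intron transcript. Neither these counts nor the correlations below were computed over all genes, so they do not set the members apart from other genes. Srsf5 has 55 decay transcripts of 97, Sf3b1 has 11 of 22, and Son has 3 of 21. Across the members, Spearman's rho with the log2 fold change was -0.19 for the number of decay transcripts, -0.40 for retained-intron transcripts and -0.32 for exons of the main transcript. The deposited counts are per gene, so the balance of these transcripts was not analysed here.

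Other splicing genes, decay genes and nuclear long non-coding RNAs were described with 5 lists. In these lists 0 genes rose (edgeR, with 5 higher at an unadjusted p under 0.05). Their counts are set against 1.79% of all genes that fell, 0.575% that rose and 48.9% with a negative fold change. At an unadjusted p under 0.05 in edgeR, 12.7% of all genes were lower and 11.8% higher. Of 50 other spliceosome genes, 2 fell and the median log2 fold change was -0.01, with 26 negative. These were Snrnp48, a protein of the minor spliceosome (-0.48 ± 0.08, edgeR adjusted p = 0.0431), and Dhx15, a helicase that takes spliceosomes apart (-0.29 ± 0.05, adjusted p = 0.0432). Snrnp48 was at 43.9, 42.1 and 46.2 CPM in the controls and 32.0, 33.3 and 29.7 CPM in MeHg, without overlap. Of 30 SR kinases and SR-related proteins, 26 were negative, 3 fell and the median was -0.18. The kinase Prpf4b had -0.42 (edgeR adjusted p = 0.0431) and Rbm25, a partner of the U1 particle, had -0.30 (adjusted p = 0.0479). Luc7l3, another U1 partner and named here after its value was seen, had -0.29 (adjusted p = 0.0489).

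Of 33 tested neuronal and other splicing regulators, 25 were negative with a median of -0.09, and 1 fell. This was Tial1, a binder of U-rich introns (-0.30, edgeR adjusted p = 0.0433), while Celf2 had -0.28 (adjusted p = 0.0520). Of 15 genes of nonsense-mediated decay and the exon junction complex, 10 were negative with a median of -0.09, and 1 fell. This was Smg1, the kinase that activates Upf1. It was at 742, 642 and 875 CPM in the controls and 461, 462 and 405 CPM in MeHg, a wide gap and a log2 fold change of -0.77 ± 0.11 (edgeR adjusted p = 0.0431). Among 9 nuclear long non-coding RNAs the median was -0.01 and none passed in edgeR. DESeq2 called 1 of them, against 5.31% of all genes that fell in DESeq2 and 3.66% that rose. At an unadjusted edgeR p under 0.05, 1 was lower and 2 higher, against 12.7% and 11.8% of all genes. Neat1, the scaffold of paraspeckles, had 0.45 (edgeR adjusted p = 0.0747) and Miat 1.36 (adjusted p = 0.0752). Rbm25, at 17376 bases, had -0.11 with the length offset, Celf2, at 25884 bases, had -0.03 and Smg1, at 23984 bases, -0.53. Snrnp48, Prpf4b, Tial1, Luc7l3 and Dhx15 had -0.37, -0.34, -0.24, -0.23 and -0.21 with it, and Neat1 and Miat 0.67 and 1.46. With the length offset the median was -0.04 for the other spliceosome genes, -0.07 for the SR kinases and SR-related genes, -0.02 for the neuronal regulators, -0.07 for the decay genes and 0.18 for the long non-coding RNAs.

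Markers of several cell types also differed between the groups, and their part in the members' values was not tested. The summed level of the 15 granule cell markers was 9030 to 9614 CPM in Control and 6678 to 7700 CPM in MeHg. Of these, 15 of 15 were negative and 6 called lower in edgeR, against 48.9% and 1.79% of all genes. The 9 astrocyte and Bergmann glia markers summed to 3743 to 3928 CPM and 3517 to 3688 CPM. For the 10 Purkinje cell markers the ranges of 11248 to 12177 CPM and 8945 to 11277 CPM overlapped. The sums of the oligodendrocyte, microglial, endothelial and ependymal lists were higher in MeHg without overlap. Gene by gene, 3 of 8, 3 of 8, 6 of 8 and 0 of 7 genes of these lists overlapped between groups. The 8 oligodendrocyte markers summed to 5747 to 6560 CPM in Control and 6565 to 8693 CPM in MeHg, with MeHg 2 the highest. The 8 microglial markers summed to 133 to 143 CPM and 152 to 183 CPM. The 8 endothelial markers summed to 178 to 198 CPM and 201 to 297 CPM, with 1, Flt1, called higher. The 7 ependymal markers had 17.3 to 25.6 CPM and 41.2 to 66.1 CPM, with 3 called higher. Of all genes, 0.575% were called higher. Choroid plexus markers, 10 genes, overlapped at 154 to 3121 CPM and 2577 to 10205 CPM. The 9 midbrain and brainstem markers had overlapping sums of 37.8 to 103 CPM and 101 to 335 CPM, with Slc6a3 and Slc6a4 at 0 in some libraries. The 5 forebrain markers overlapped too, at 9.33 to 11.9 CPM and 10.1 to 11.2 CPM, with Emx1 at 0 in 1 library.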

How the data were processed

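RNA of the cerebellum was sequenced in 3 Control and 3 MeHg libraries on an Illumina NovaSeq with paired reads of 150 bases, per the labels' protocols. The submitters' processing notes name mm39 and DESeq2 only. Nothing about the aligner, counter, annotation release or strand setting is given in the sources used here. Whole-number counts per gene with no normalisation are in the deposited count table. By their values, the deposited FPKM were computed by the authors from count, gene length and a library total. They are used here for levels between genes and in 2 alternatives.

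Members and lists were chosen with earlier results of these data known. Genes were filtered with filterByExpr, scaled by TMM and tested in edgeR 4.0.16 (R 4.3.3) by its quasi-likelihood F test, with group as the only term and all 6 libraries. P-values were adjusted by Benjamini-Hochberg over 16859 genes, with calls at an adjusted p under 0.05. The SE is the absolute log2 fold change divided by the square root of F. CPM uses the TMM-scaled library size, except in the member rule, which uses the total count. Members given with all libraries are Nktr, Son, those called, and in each family the 2 with the smallest p and the one with the highest FPKM; of each other list, the 2 with the smallest p. A few results that these rules name are not reported here. Of 35 symbols of neuronal and other regulators, 34 were matched to the table. Pathway lists numbered 5 and cell type marker lists 10. Alternatives were other scalings and filters, replicate number, sex or Xist as a term, DESeq2 1.42.0, limma-voom and limma 3.58.1 on log2 FPKM, loess offsets per library (span 0.5) for length and GC content, leaving out each library, and an adjusted p under 0.1. Leaving out both libraries numbered 2 was added after seeing the data.

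Of the table's gene IDs, 98.7% are in GENCODE vM39. Gene coordinates are those of the deposited table. Paralogues and overlapping genes can share reads, so their values are uncertain; the 3 pseudogenes named after members had at most 0.319 CPM. Within groups, libraries differed by a chi-square per degree of freedom of 7.77 to 19.7, so none were copies. In simulated data for MeHg against Control (16859 genes), planted log2 changes of 0.5 were found in 17 of 57 genes, those of 1 in 50 of 72 and those of 2 in 66 of 71. Among 16659 unplanted genes, 9 were called.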

Additional observations from a re-analysis of the deposited data

How the results depend on the processing

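Over 22 alternatives, 938 of 1012 values for single members stayed on their side of the threshold, 42 moved past it and 32 no longer passed. Of the 938, 45 changed sign, all for members that did not pass, and no call reversed. The numbers below count genes that passed in either direction, and the cause of each shift was not tested.

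With upper-quartile scaling, which moved the median of all genes to 0.04, 197 genes passed (60.4% of them lower, against 75.6% of 398), with 1 member, 1 other spliceosome gene, 1 SR-related gene and 0 neuronal regulators; the medians were -0.12 for the members and -0.0325 for Hnrnp. Without a filter on low counts 2378 genes passed (49.5% lower), with 12 members, 7 SR-related genes, 9 neuronal regulators, 2 decay genes and 4 long non-coding RNAs. With sex as labelled the numbers were 609 genes, 5 members and 2 neuronal regulators. With the Xist level as a covariate they were 1714 genes (48.7% lower), 10 members, 6 SR-related genes, 9 neuronal regulators and 2 long non-coding RNAs, and the Hnrnp median was -0.10. DESeq2 passed 1394 genes (59.2% lower), 9 members, 6 SR-related genes, 9 neuronal regulators and 1 long non-coding RNA. At an adjusted p under 0.1, edgeR passed 1653 genes, 9 members, 8 SR-related genes, 8 neuronal regulators, 2 decay genes and 2 long non-coding RNAs.

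Limma on log2 FPKM with 1 or 0.1 added passed 0 genes, and so 0 members and 0 genes of each list, with 3874 and 3887 genes and 21 members at an unadjusted p under 0.05. The length offset in edgeR also passed 0 (3589 genes and 18 members unadjusted), with medians of -0.12 for members and -0.23 for Srrm with Nktr and Son. The GC offset passed 58 genes (89.7% lower) and 0 members (3858 genes and 17 members unadjusted). It passed 0 other spliceosome genes, SR-related genes or neuronal regulators. Its medians were -0.12 for members, -0.0326 for Hnrnp and -0.0377 for Sf3a and Sf3b. With both offsets 0 passed (3528 genes and 14 members unadjusted), and the medians were -0.11 for members, -0.13 for Srsf, -0.22 for Srrm with Nktr and Son, -0.0473 for Hnrnp and -0.0695 for Sf3a and Sf3b.

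Same-numbered Control and MeHg libraries had correlations of 0.187, 0.346 and -0.236 between their deviations from the group means. MeHg 1 and MeHg 2 correlated best with their own number, and MeHg 3 with Control 1 (0.358). Deviations from a mean of 3 libraries depend on each other, so these values cannot tell whether the numbers pair the samples. With the replicate block 648 genes passed (60.2% lower), with 4 members, 2 neuronal regulators and 2 long non-coding RNAs. Without both libraries numbered 2, 1723 genes passed (64.8% lower), with 9 members, 4 other spliceosome genes, 9 SR-related genes, 8 neuronal regulators and 2 long non-coding RNAs.

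Leaving out 1 library at a time gave 0 to 1091 genes, 0 to 6 members, 0 to 2 other spliceosome genes, 0 to 5 SR-related genes, 0 to 6 neuronal regulators, 0 to 1 decay genes and 0 long non-coding RNAs. The number was 0 without Control 1, Control 3 or MeHg 3, 2 without MeHg 1, 220 without Control 2 and 1091 without MeHg 2. Medians ran from -0.17 to -0.11 for members, -0.22 to -0.14 for Srsf, -0.46 to -0.30 for Srrm with Nktr and Son, -0.124 to -0.0729 for Hnrnp and -0.01 to 0.06 for Sf3a and Sf3b.

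With 3 libraries a group, a change of 0.5 on the log2 scale was mostly missed in the simulation. Its planted genes were drawn from all genes tested, so that rate is not the members' own. Most members' fold changes were smaller than 0.5, including the -0.43, -0.32 and -0.32 of the members called, Son, Sf3b1 and Srsf5. Members that did not pass cannot be called unchanged.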
